A study of Mus musculus with 4 samples.

Results

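Chondroitin sulfate is a long sugar chain of alternating glucuronic acid and N-acetylgalactosamine that is built in the Golgi on a serine of a core protein. The genes described here cover the steps of that synthesis. Csgalnact1 and Csgalnact2 encode the transferases that add the first N-acetylgalactosamine and so commit a chain to chondroitin, Chsy1 encodes a synthase that lengthens it, Chst11 and Chst12 encode sulfotransferases that sulfate the 4-O position of N-acetylgalactosamine, Chst15 encodes the enzyme that adds a 6-O sulfate to a unit already sulfated at 4-O, and Vcan encodes versican, a large matrix proteoglycan that carries many such chains. Macrophages place chondroitin sulfate on surface and secreted proteoglycans, where it binds cytokines, growth factors and matrix proteins. The set was named as 7 genes with earlier results of these arrays in view, Chst11 among the largest differences, and each gene's feature was selected by the highest mean over the 4 arrays among the features whose annotation gave exactly 1 symbol. This found 6 of the 7 genes, among 22180 genes with such a feature; the feature of Chst15 carried a second symbol, Gm10584, and is not read here. The knockout-against-control values of these 6 genes are therefore given as a description, with an error but with no p-value.

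RNA came from mouse bone marrow derived macrophages, grown for 6 days with L-cell supernatant and then given 100 ng/ml of lipopolysaccharide (LPS) for 2 hours. The control genotype, PP2ACαfl/fl, carried floxed alleles of Ppp2ca, which encodes a catalytic subunit (alpha) of the phosphatase PP2A, and no Cre. The knockout genotype, PP2ACαfl/fl;lyM-Cre, carried the same alleles and a Cre described as myeloid-specific that removes exon 1. There were 2 arrays per genotype; the labels call them biological replicates but do not say that separate mice were used, so the spread between them may be technical in part; the number of arrays limits the precision. All 4 samples had received LPS, so no value here is a response to LPS. Ppp2ca read 8.25 and 7.59 log2 units in control. It read 4.36 and 3.39 in knockout, values close to the level for testing (3.53 log2 units, the median over all features). The Ppp2ca difference was -4.04 with this feature, its brightest, and -2.14 with the mean of its features. The macrophage label was checked on 8 markers, among them Adgre1, Csf1r and Cd68, which read 8.17 to 11.97 in control and 8.31 to 11.90 in knockout arrays.

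Chst11 was the gene of the set that differed most. It read 10.31 and 10.27 log2 units on the control arrays and 8.08 and 8.17 on the knockout arrays. Both knockout arrays lay below both control arrays, and the gap between the genotypes was far wider than the gap between arrays of one genotype, 0.04 in control and 0.09 in knockout. The means were 10.29 ± 0.03 and 8.12 ± 0.07 (SD, n = 2 each), a difference of -2.17 (SE 0.09, 95% interval -2.39 to -1.95), or 4.50-fold lower in knockout. Ordered by signed difference, this was the seventh lowest of 12542 tested genes and, by size in either direction, number 13. The level in knockout remained well above that for testing, which is a median over all features and no measure of detection.

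The sister enzyme Chst12, which acts on the same position of the same sugar, read 6.52 and 6.60 in control and 6.48 and 6.58 in knockout. These arrays interleaved, and the difference was -0.02 (SE 0.09, 95% interval -0.25 to 0.21). The regions before the start sites of both genes are shown because the pair shares a reaction and differed in these cells. They are the 250 bases before each RefSeq start site in GRCm38.p6, on the plus strand, at chr10:82985247-82985496 for Chst11 and chr5:140505359-140505608 for Chst12, with matches to the GC box (GGGCGG on either strand) in capitals:
Chst11: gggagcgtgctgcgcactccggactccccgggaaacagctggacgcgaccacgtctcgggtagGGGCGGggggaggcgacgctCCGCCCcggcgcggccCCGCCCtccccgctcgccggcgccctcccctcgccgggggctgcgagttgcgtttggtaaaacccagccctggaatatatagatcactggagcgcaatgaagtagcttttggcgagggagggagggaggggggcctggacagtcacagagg
Chst12: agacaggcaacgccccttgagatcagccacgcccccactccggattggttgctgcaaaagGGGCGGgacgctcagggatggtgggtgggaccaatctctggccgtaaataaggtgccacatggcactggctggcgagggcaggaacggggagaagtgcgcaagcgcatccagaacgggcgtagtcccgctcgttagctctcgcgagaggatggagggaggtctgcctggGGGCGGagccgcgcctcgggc
Chst11 had 3 GC box matches and Chst12 had 2, and G and C made up 70.0% and 65.6% of the letters, against a median of 52.4% over 32851 windows of the same length. A GC box was in 32.7% of those windows. Neither window held an E-box (CACGTG, in 6.02% of all windows), an AP-1 site (TGANTCA, 6.75%), the full cyclic AMP response element (TGACGTCA, 1.55%) or a TATA box (TATAAA, 12.4%) on either strand. These are matches of letters and no measurement of binding. No match overlapped another in either window.

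**Figure D1:**
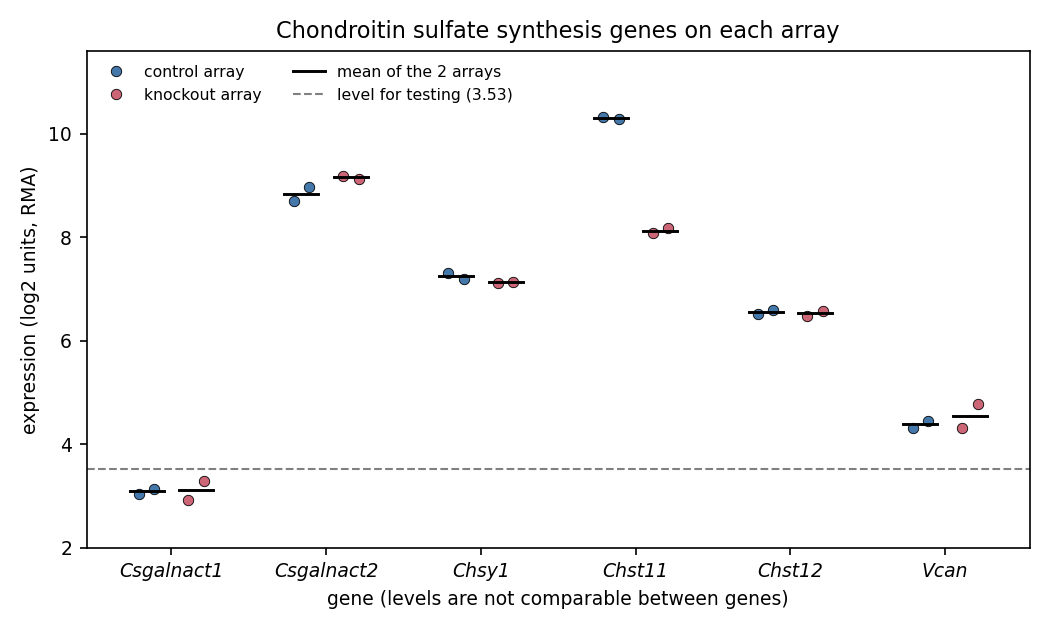
Expression in log2 units (vertical axis) of the 6 genes with a readable feature on each of 2 control and 2 knockout arrays; points are arrays, bars are means of the 2 arrays and the dashed line is the level for testing. Chst11 is the gene whose groups part widely, at 10.31 and 10.27 against 8.08 and 8.17, while Chst12 and Vcan overlap and Csgalnact1 lies below the line.

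For the tested enzymes that start and lengthen the chain, differences were close to the gap between the control arrays. Csgalnact2 read 8.69 and 8.97 in control and 9.18 and 9.13 in knockout. Both knockout arrays were higher, but the difference of 0.32 (SE 0.12, 95% interval 0.03 to 0.62) was close to the 0.28 between the control arrays. The knockout arrays lay 0.05 apart. Csgalnact1, the other initiating transferase, read 3.05 and 3.14 in control and 2.93 and 3.29 in knockout, all below the level for testing. It was not tested and no difference is given. Whether its transcript lay above background was not tested, since that level is the median over all features. Chsy1 read 7.32 and 7.19 in control and 7.11 and 7.14 in knockout. Its groups did not overlap, yet the difference of -0.13 (SE 0.09, 95% interval -0.36 to 0.10) was the same size as the 0.13 between the control arrays. The knockout arrays of Chsy1 lay 0.03 apart. A second Chsy1 feature was dim, at 3.72 and 3.61 against 3.15 and 3.54, with a mean just under the level for testing.

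Vcan, the core protein of the set, read 4.32 and 4.45 in control and 4.32 and 4.77 in knockout. The knockout arrays spanned both control values, and the difference was 0.16 (SE 0.16, 95% interval -0.25 to 0.57). The values lie near the level for testing, where differences are understated, and the interval is the widest of the set.

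Across the 5 tested genes of the set, Chst11 alone passed an adjusted p of 0.05 in limma's fit over all tested genes, while 6.79% of all tested genes passed in either direction and 3.49% of all tested genes passed as lower in knockout. Since the set was drawn up with this contrast known, nothing is read from that count. The groups did not overlap for 3 of the 5 genes, against 55.3% of all tested genes. The median difference was -0.02 in the set and 0.0076 over all tested genes. Of the 4 tested genes other than Chst11, 0 passed limma and 1 had an unadjusted p under 0.05, as had 24.7% of all tested genes.

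**Figure D2:**
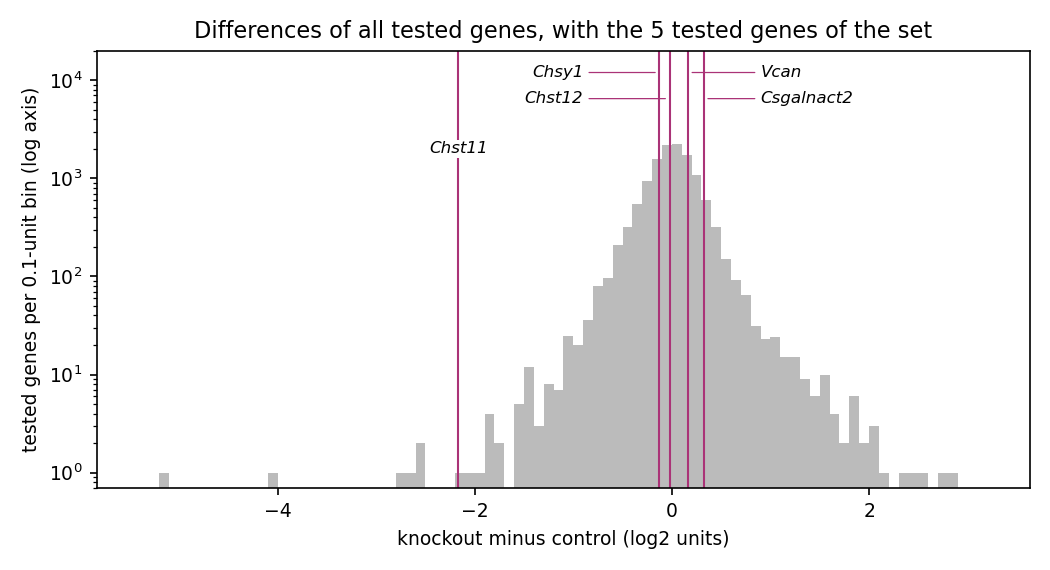
Number of tested genes (log axis) by knockout minus control difference in log2 units, with vertical lines at the 5 tested genes of the set. Chst11, at -2.17, lies in the sparse left tail, and Chsy1, Chst12, Vcan and Csgalnact2, between -0.13 and 0.32, lie in the central mass.

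The tested genes with the pattern nearest to Chst11, by Euclidean distance between the 4 centred log2 values, were Qpct (distance 0.21), Ak4 (0.37) and Itgax (0.40). Qpct, which encodes glutaminyl-peptide cyclotransferase, read 8.62 and 8.40 in control and 6.50 and 6.49 in knockout. Ak4, a mitochondrial adenylate kinase, read 5.51 and 5.49 against 3.73 and 3.51. Itgax, the integrin alpha chain of CD11c, read 7.87 and 7.77 against 5.35 and 5.22. The likeness is over 4 arrays and rests mostly on the size of the genotype difference.

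The genes beside Chst11 on its chromosome were read next. Of the 4 protein-coding genes next to it on each side in the RefSeq order of GRCm38.p6, 7 of 8 were tested. Among these, 0 passed limma and 2 had an unadjusted p under 0.05, as had 24.7% of all tested genes. The 7 differences ran from -0.39 to 0.21. The flanking genes are Eid3 and Slc41a2, a magnesium transporter. Eid3 differed by 0.08 (SE 0.12, adjusted p = 0.73) and Slc41a2 by -0.12 (SE 0.09, adjusted p = 0.46). The lowest was D10Wsu102e, which read 7.80 and 7.87 in control and 7.48 and 7.41 in knockout. Its difference was -0.39 (SE 0.09, limma adjusted p = 0.0665), and the nearby thioredoxin reductase gene Txnrd1 differed by -0.26 (SE 0.09, adjusted p = 0.16).

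Other genes tied to chondroitin sulfate lie outside the set and were read as well. They cover linkage, chain synthesis and modification, precursor supply, breakdown, other core proteins and partners of versican. The lists are thus wider than the synthesis pathway. Their lists were written from textbook roles, but with earlier results of these arrays known, so they are not independent of the contrast. The lists held 77 genes, of which 71 had a readable feature and 53 were tested. Of these, 4 fell (Xylt1, Papss2, Csf1 and Sdc1) and 1 rose (Tnfaip6), which is 9.43% of those tested against 6.79% of all tested genes. The median difference was 0.0024, against 0.0076 over all tested genes, and the groups did not overlap for 31 of the 53, near the 55.3% of all tested genes. With Tnfaip6 and 3 other genes left out because 1 group mean lay below the level for testing, 4 of 49 passed, all lower. That is 8.16%, near the 6.76% of all genes under the same restriction. Leaving out any 1 of the 4 arrays ended all 5 calls, though the differences kept their direction. Far fewer of all tested genes passed limma then too, so this loss is not particular to these lists.

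**Figure D3:**
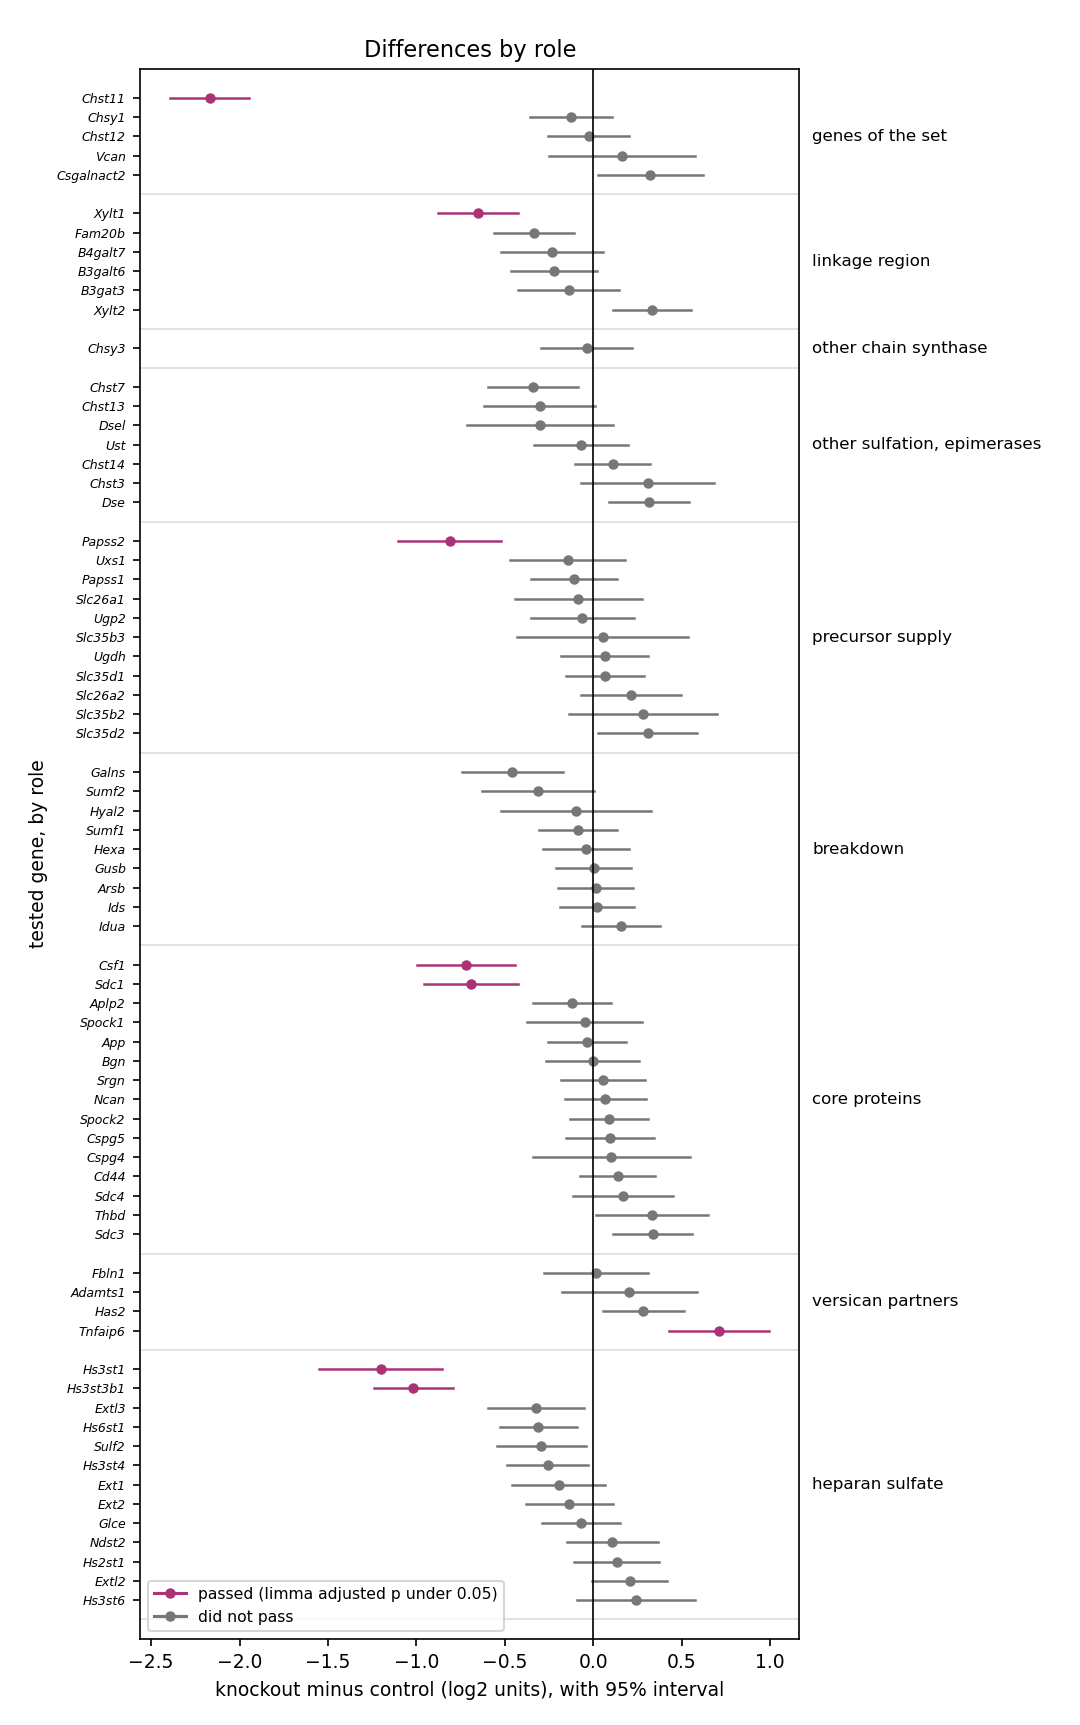
Knockout minus control differences in log2 units with 95% intervals for the tested genes of the set and of each related list, ordered within their role; coloured points passed limma over all tested genes. Chst11, at -2.17, lies far to the left of all other genes shown, the next being Hs3st1 at -1.20.

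The first step of the chain, shared with heparan sulfate, is the transfer of xylose to the core protein. Xylt1, which encodes one of the 2 xylosyltransferases, read 8.49 and 8.46 in control and 7.77 and 7.88 in knockout, a fall of 0.65 on the log2 scale (SE 0.09, limma adjusted p = 0.021). Xylt2, which encodes the other, differed by 0.33 in the opposite direction (SE 0.09, adjusted p = 0.089) and did not pass. Fam20b, the kinase that phosphorylates that xylose, differed by -0.34 (adjusted p = 0.093), and the galactosyltransferase genes B4galt7 and B3galt6 by -0.23 and -0.22. Of the 6 tested linkage genes 1 fell and 0 rose, against 6.79% called among all tested genes, with a median of -0.23. The groups did not overlap for 5 of the 6, against 55.3% of all tested genes.

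Of the other enzymes that act on the chain none passed. Chsy3, a second synthase, differed by -0.04 (SE 0.10, adjusted p = 0.87), and the polymerizing factor gene Chpf lay below the level for testing. Of 7 tested sulfotransferase and epimerase genes, 0 passed limma and 2 had an unadjusted p under 0.05, as had 24.7% of all tested genes. These 2 were the epimerase gene Dse, whose enzyme turns chondroitin into dermatan sulfate, at 0.32 (SE 0.09, adjusted p = 0.11), and the 6-O-sulfotransferase gene Chst7, at -0.34 (SE 0.10, adjusted p = 0.11). Dse read 9.50 and 9.62 in control and 9.86 and 9.89 in knockout. The other 6-O-sulfotransferase gene, Chst3, differed by 0.31 (SE 0.15, adjusted p = 0.27). Chst13, a further 4-O-sulfotransferase gene, read 4.50 and 4.51 in control and 4.05 and 4.36 in knockout, a difference of -0.30 (SE 0.13, 95% interval -0.62 to 0.01, adjusted p = 0.22). The dermatan 4-O-sulfotransferase gene Chst14 differed by 0.11 (adjusted p = 0.48).

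Among genes that supply sulfate and sugar donors, Papss2 fell. Papss2, which encodes a synthase of PAPS, the sulfate donor of all these sulfotransferases, read 7.52 and 7.55 in control and 6.59 and 6.85 in knockout, a fall of 0.81 on the log2 scale (SE 0.12, limma adjusted p = 0.023). Papss1, the gene of the second PAPS synthase, differed by -0.11 (SE 0.10, adjusted p = 0.54). Slc35b2, a transporter that carries PAPS into the Golgi, differed by 0.28 (SE 0.17, adjusted p = 0.36), and Ugdh, which makes the glucuronic acid donor, by 0.06 (adjusted p = 0.73). Of 11 tested supply genes 1 fell and 0 rose, against 6.79% called among all tested genes, and the median was 0.05.

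Of 9 tested genes that break the chain down, 0 passed limma, against 6.79% of all tested genes, a share at which few calls would fall among so few genes. An unadjusted p under 0.05 was found for 1 of them, against 24.7% of all tested genes. This was Galns, the lysosomal sulfatase that removes 6-O sulfate. It read 8.52 and 8.43 in control and 8.14 and 7.90 in knockout (difference -0.46, SE 0.11, limma adjusted p = 0.079). Arsb, which removes the 4-O sulfate that the Chst11 enzyme adds, differed by 0.01 (SE 0.08, 95% interval -0.20 to 0.23, adjusted p = 0.94). Sumf2, a paralog of the sulfatase-activating enzyme gene, differed by -0.31 (adjusted p = 0.21), and the median of the list was -0.04.

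Of 15 tested genes of other core proteins that can carry chondroitin sulfate, 2 fell and 0 rose, with a median of 0.07. Among all tested genes 6.79% were called. Csf1, the macrophage growth factor that also exists as a proteoglycan, read 8.41 and 8.46 in control and 7.60 and 7.83 in knockout, a fall of 0.72 on the log2 scale (SE 0.11, limma adjusted p = 0.027). Sdc1, a syndecan of the cell surface, read 6.03 and 5.86 against 5.19 and 5.32, a fall of 0.69 on the log2 scale (SE 0.11, adjusted p = 0.027). With the mean of its features the Sdc1 difference was -0.36 and did not pass; its adjusted p ran from 0.0088 to 0.14 over the refits. Srgn, the serglycin core protein of myeloid cells, read 10.61 and 10.47 against 10.57 and 10.63, which overlapped, and differed by 0.05 (SE 0.10, adjusted p = 0.77). The hyaluronan receptor gene Cd44 differed by 0.14 (SE 0.09, adjusted p = 0.37) and the syndecan gene Sdc3 by 0.34 (SE 0.09, adjusted p = 0.089). Dcn and Acan, core proteins of connective tissue and cartilage, lay below the level for testing.

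Most partners of versican were dim: 10 of 14 with a feature lay below the level for testing, among them Hapln1 and Adamts5. Of the 4 tested, against 6.79% called among all tested genes, Tnfaip6 passed, whose product TSG-6 transfers heavy chains of inter-alpha-inhibitor to hyaluronan. It read 3.27 and 3.43 in control and 3.97 and 4.16 in knockout, a difference of 0.71 (SE 0.11, limma adjusted p = 0.029), with both control arrays below the level for testing. It entered the test through the knockout arrays alone and its size is not exact; of the 3 partners with both group means at that level, 0 passed limma and 1 had an unadjusted p under 0.05. The hyaluronan synthase gene Has2 differed by 0.28 (SE 0.09, adjusted p = 0.13).

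Heparan sulfate is built on the same linkage region by other enzymes and gives a comparison with the sister pathway. Of 23 listed genes 13 were tested, 2 fell and 0 rose (15.4% of those tested, against 6.79% of all tested genes), and the median was -0.20, against 0.0076 over all tested genes. Both genes that fell encode 3-O-sulfotransferases, which add the rare 3-O sulfate. Hs3st3b1 read 5.62 and 5.60 in control and 4.64 and 4.54 in knockout (difference -1.02, SE 0.09, limma adjusted p = 0.0075). Hs3st1 read 4.32 and 4.69 against 3.33 and 3.27, a difference of -1.20 (SE 0.14, adjusted p = 0.014) whose size is not exact, since both knockout arrays lie below the level for testing and the gene was tested through its control arrays alone. Among the 12 genes with both group means at that level 1 passed, Hs3st3b1, which is 8.33%, against 6.76% of all genes so restricted. A further gene of that kind, Hs3st4, differed by -0.26 (SE 0.09, adjusted p = 0.16). The polymerase genes Ext1 and Ext2 differed by -0.20 and -0.14 and did not pass. In all 13 tested genes the groups did not overlap, against 55.3% of all tested genes, 9 of them lower and 4 higher in knockout. Without knockout replicate 1 Hs3st3b1 alone passed, and without knockout replicate 2 neither did. Of 3 tested sulfotransferases of the same family that act on other glycans, 0 passed limma. Of these 0 had an unadjusted p under 0.05, against 24.7% of all tested genes. Chst1 differed by -0.18 (SE 0.22) and Chst2 by -0.13 (SE 0.09).

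**Figure D4:**
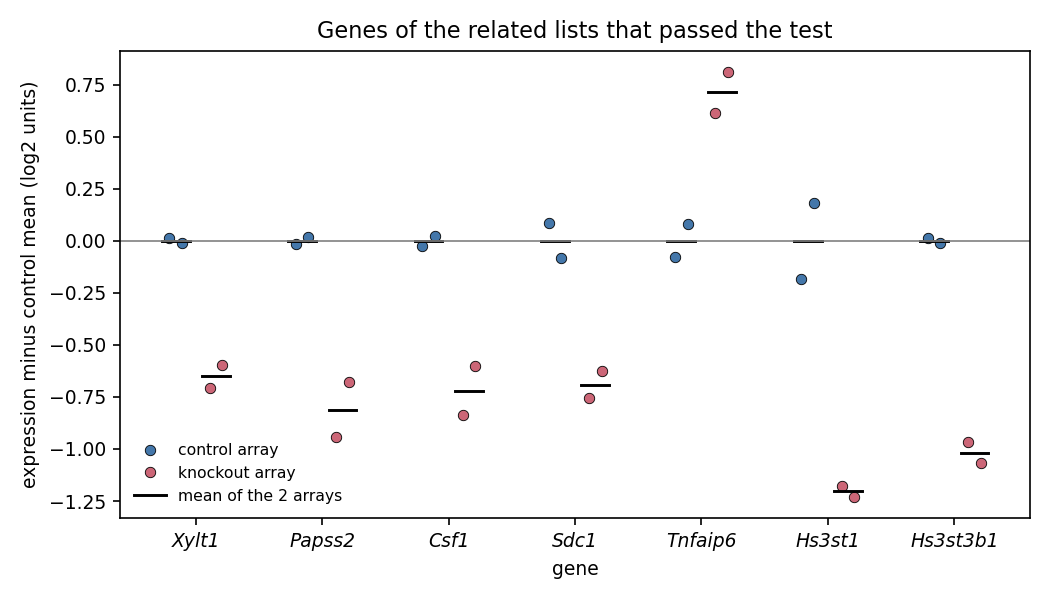
Expression minus the control mean in log2 units (vertical axis) for the 7 genes of the related lists that passed, on each of 2 control and 2 knockout arrays; bars are means. Xylt1, Papss2, Csf1, Sdc1, Hs3st1 and Hs3st3b1 lie below their controls on both knockout arrays, and Tnfaip6 lies above.

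Markers of other cells that could be present in such cultures were measured beside these genes. Fibroblast and stromal markers, a cell type known for versican and chondroitin sulfate, did not exceed 4.43 on any array. Of these 4 of 8 lay below the level for testing, and 0 of 4 tested passed limma (0 at an unadjusted p under 0.05). List sums given here add the log2 values of all listed genes with a feature, tested or not, and are no total of expression. The fibroblast and stromal sum was 26.36 to 26.55 in control and 26.11 to 26.17 in knockout. All 4 B cell markers with a feature lay below that level. No neutrophil marker (3 tested, 0 at an unadjusted p under 0.05), T or NK cell marker (2 tested, 0) or mast cell and basophil marker (2 tested, 1) passed limma. Of 4 tested dendritic cell markers 1 fell, Itgax, at -2.54, and 3 did not pass. These were Ccr7, which differed by 0.40 (limma adjusted p = 0.064), Flt3, by 0.16, and Cd209a, by -0.04. Among the 4, 2 had an unadjusted p under 0.05, and the median difference was 0.06. Some myeloid markers differed between the genotypes, while 6.79% of all tested genes passed limma. Of 8 tested macrophage markers 1 rose, the Fc receptor gene Fcgr1, at 0.94 (SE 0.12, limma adjusted p = 0.016). In that list 2 had an unadjusted p under 0.05, as had 24.7% of all tested genes, and the median difference was 0.08. The macrophage list sum was 86.02 to 87.16 in control and 88.09 to 88.17 in knockout. Its differences ran from -0.07 to 0.94, the highest being Fcgr1, with 5 positive and 3 negative. Of 5 tested monocyte markers 3 rose (Ms4a4c, Ccr2 and Ly6c2) and 1 fell (F13a1), and 4 of the 5 had an unadjusted p under 0.05. Their list sum was 32.54 to 33.03 in control and 34.97 to 35.66 in knockout. Of 4 tested osteoclast and fusion markers 2 fell, Dcstamp at -1.46 and Ocstamp at -0.60. Acp5 differed by -0.65 (limma adjusted p = 0.058) and Ctsk by -0.52 (adjusted p = 0.053), and neither passed. All 4 had an unadjusted p under 0.05 and groups that did not overlap, against 24.7% and 55.3% of all tested genes. The list sum was 28.06 to 28.61 in control and 24.88 to 25.18 in knockout, while Calcr and Oscar lay below the level for testing. Fewer cells of a type and less RNA per cell cannot be told apart in these bulk samples, and the part of these shifts in the Chst11 difference was not tested.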

How the data were processed

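The authors deposited 1 table of log2 values of 41345 features on 4 whole-transcript arrays. Per the series' design text these log2 values were made by RMA with background adjustment and normalization, and RMA and oligo are listed per the submitters' processing notes; versions are not given in the sources used here. A change of total RNA per cell would not be seen after normalization. Features were named from the platform annotation: 23521 had 1 symbol, 1814 had several and 16010 were unnamed. Per gene the feature with the highest mean was used, and 12542 genes with a mean of at least 3.53 were tested. The test was limma 3.58.1 in R 4.3.3 (lmFit, eBayes, no block), two-sided, with Benjamini-Hochberg adjustment over all tested genes and a threshold of 0.05. The fit was also run on simulated data drawn from its own variance model, which cannot show how it performs on these arrays. The set and the lists were chosen with earlier results of these data known. All genes of the set were named, and of each pathway list those that passed or else its 2 largest differences, with Ppp2ca and the 3 nearest patterns; other genes were named for their role or their place beside Chst11. Sequences are from RefSeq, with GRCm38.p6 as the build given with them, and with windows for 6 of the 7 genes. Alternatives covered the filter, the normalization, the feature choice, each array left out, the replicate block, the variance model and a 1.5-fold cutoff.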

Additional observations from a re-analysis of the deposited data

How the results depend on the processing

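For the genes of the set, chosen on this contrast, the settings bear on the size of the difference alone. Chst11 ran from -2.21 to -2.12 over 12 refits. With 1 array left out, Csgalnact2 ran from 0.19 to 0.46, Chsy1 from -0.19 to -0.064, Chst12 from -0.073 to 0.025 and Vcan from -0.064 to 0.39. Vcan was negative without knockout replicate 2, and Chst12 was positive without control replicate 2 or knockout replicate 1. Chsy1 was -0.23 with the mean of its features. Over all tested genes 852 passed; the count was 333 with no filter on low values, 1475 with a filter at a mean of 5 log2 units, 1584 with a prior variance that follows the mean, and 96 to 174 with 1 array left out. Among the 53 tested genes of the chondroitin sulfate lists 5 passed; the count was 1 with no filter (Papss2), 8 with the stricter filter, 10 with the variance trend and 0 with any 1 array left out. Of the 13 heparan sulfate genes 2 passed, and 0 to 2 with 1 array left out. Among genes whose group means both reach the level for testing, a restriction chosen after the values were seen, 4 of 49 and 1 of 12 passed. Under that restriction 6.76% of all genes passed. With 1 array left out, the lone array is assumed to vary like the others. The labels' replicate numbers do not say that they pair the samples (the deviations of same-numbered arrays correlated at -0.036 over genes); with the replicate block 312 genes passed, 2 of the chondroitin sulfate lists (Papss2 and Tnfaip6), 2 of the heparan sulfate list and 1 of the set. Chst1 turned to 0.14 without control replicate 2 and Chsy3 to 0.061 without knockout replicate 1, with ranges over the arrays left out of -0.50 to 0.14 and -0.13 to 0.061; neither passed in any refit. These settings also change the number of arrays or of genes tested, and the causes of the shifts were not tested.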
